A study of Homo sapiens with 12 samples.

Results

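The genes described here are 10 transcriptional readouts of the ERK pathway in HK-2 cells, a human kidney line of immortalised proximal tubule epithelium. They are the MAP kinase phosphatases DUSP4, DUSP5 and DUSP6, the pathway inhibitors SPRY2, SPRY4 and SPRED1, and the output genes PHLDA1, ETV4, ETV5 and FOSL1. They were chosen by name, and each was read from its probe set with exactly 1 gene symbol and the highest mean over all 12 arrays. Of the 10 genes 9 reached 5 log2 units on at least 3 arrays and were tested among 10050 genes that passed this filter. DUSP4 did not reach it on any array.

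Growth factor receptors activate RAS, which starts a relay of the kinases RAF, MEK and ERK. ERK phosphorylates transcription factors, and among the genes that then rise are brakes on the same relay: DUSP proteins remove the activating phosphates from ERK, while Sprouty and SPRED proteins act nearer to RAS. Because these genes follow ERK activity, their RNA is widely used as a readout of the pathway. Proximal tubule cells carry receptors for EGF and related ligands.

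The study exposed HK-2 cells to a compound that the labels call Ra, or to the matching vehicle, for 12 h or 48 h, with 3 samples called biological replicates in each of the 4 groups. All groups were grown in the same medium, which held 10 ng/ml recombinant EGF, insulin, transferrin, selenium and hydrocortisone, so the ERK pathway had a ligand in control cells too. What Ra is, its dose and the vehicle are not given in the labels used here. All samples are of 1 cell line, which limits them as a model of tubule tissue. Total RNA was hybridised to Affymetrix 3′ expression arrays, and values are log2 units made by the authors with GCRMA. A difference of 1 unit is a doubling of signal, and levels of different genes are not compared because probe sets bind unequally.

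Of 13 proximal tubule markers only PAX8 passed the filter, against 5 of 5 epithelial markers (KRT8, KRT18, KRT19, EPCAM and CDH1), 3 of 5 fibroblast markers and 1 of 4 podocyte markers. Of 4 endothelial, 4 immune and 4 distal nephron markers 0 passed. Replicates were tight at 12 h, where the median gene's SD was 0.12 in both groups, and wider at 48 h, where it was 0.22 for control and 0.43 for Ra arrays. Ra 48 h replicate 2 stood apart. Its median gene lay -0.65 units from the control 12 h mean, where the other 11 arrays lay between -0.04 and 0.03. Results are therefore given from a limma fit over all 12 arrays, which shares 1 spread estimate, and from a fit over the 6 arrays of each time. Unless another fit is named, ± values at 12 h are standard errors (SE) of the fit of 6 arrays. Those at 48 h and between the times are SEs of the fit of 12 arrays, which also draws on the tighter 12 h arrays. In these bulk cultures a change in RNA per cell and a change in the mix of cells cannot be told apart.

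At 12 h PHLDA1, ETV4, SPRY2 and ETV5 rose in Ra-treated cells when judged by the spread of that time. SPRY4 was also called, but it passed the filter only through the Ra groups. It kept this call in 0 of 6 fits with an array of 12 h left out. The counts that follow include SPRY4. All 9 tested genes had a higher mean with Ra, with a median of 0.58 log2 units, while 52.0% of all 10050 genes had a higher mean and their median difference was 0.01. In the fit of the 6 arrays of 12 h, 5 of the 9 rose: SPRY2, SPRY4, PHLDA1, ETV4 and ETV5, by 1.49-fold to 1.80-fold. In that fit 7.34% of all genes were called higher. In the fit of all 12 arrays 0 of the 9 passed, where 0.0299% of all genes were called. In it 2 had an unadjusted p under 0.05 (PHLDA1 and ETV4), as did 751 of all 10050 genes. For 7 of the 9 genes every Ra array lay above every control array, which was so for 18.4% of all genes.

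**Figure D1:**
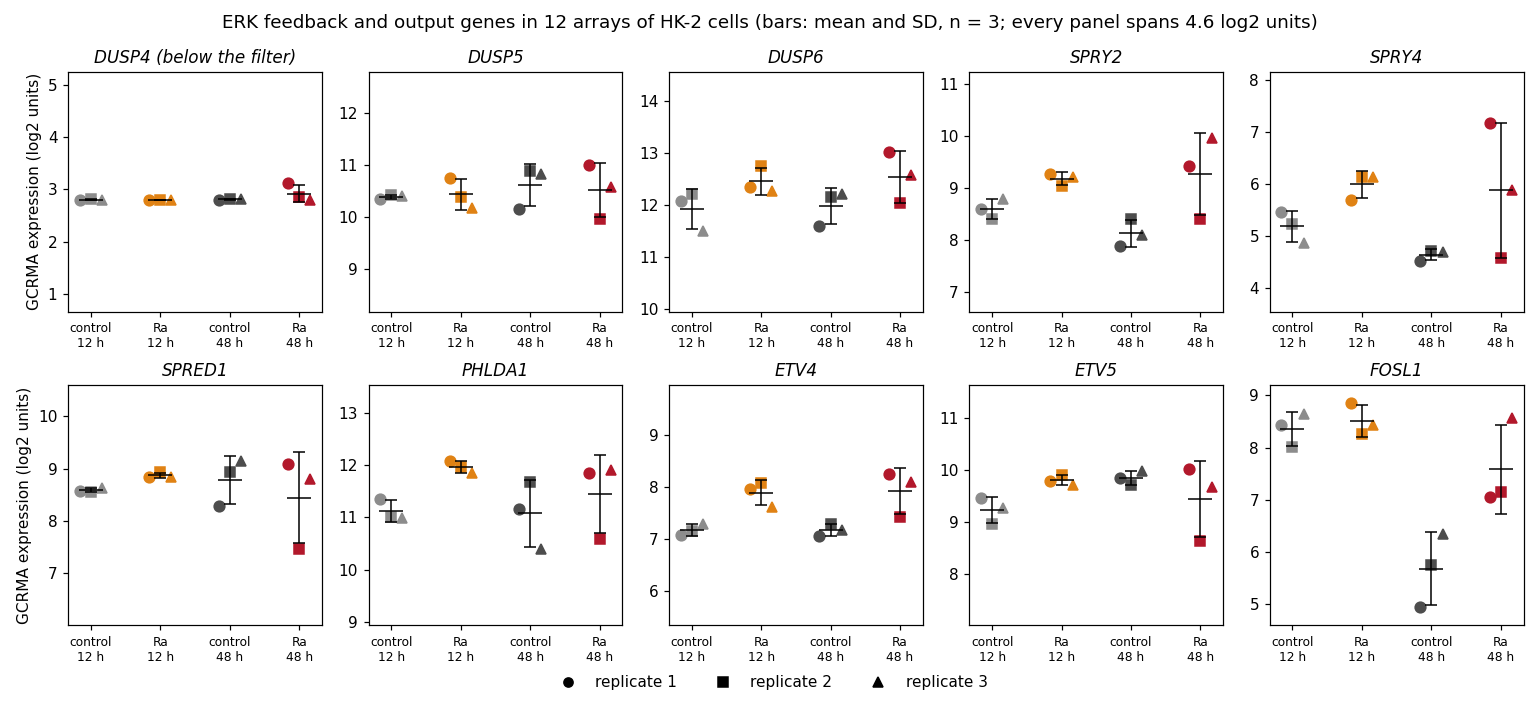
GCRMA expression in log2 units for each of the 10 genes on all 12 arrays, with the group on the horizontal axis, the symbol showing the replicate number, and bars giving the mean and SD of 3 arrays. At 12 h the Ra arrays of PHLDA1 (11.84 to 12.09) sit above its control arrays (10.99 to 11.36), and at 48 h FOSL1 is at 4.95 to 6.34 in control cells and 7.05 to 8.57 with Ra.

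Among the phosphatases, DUSP4, an inducible nuclear enzyme, gave no signal above the filter. Its values ran from 2.79 to 3.12 over the 12 arrays, at the level of background. DUSP5, which acts on ERK in the nucleus, stood at 10.34, 10.42 and 10.41 in control cells at 12 h and at 10.75, 10.38 and 10.17 with Ra. The groups overlapped, and the difference was 0.04 ± 0.14 (SE, n = 3 per group; limma adjusted p = 0.859 with 6 arrays). DUSP6, the ERK-specific phosphatase of the cytoplasm, stood at 12.08, 12.21 and 11.50 in control cells and at 12.35, 12.76 and 12.28 with Ra. Its groups did not overlap. The difference of 0.53 ± 0.20 did not pass (limma adjusted p = 0.109 with 6 arrays). It passed with the replicate number as a block in the 6 arrays (0.53 ± 0.09, limma adjusted p = 0.0077). The labels do not state such a pairing. It was inferred from these same arrays, where same-numbered samples deviated together at 12 h, so this call is conditional on it.

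The inhibitors that act near RAS were all higher on every Ra array of 12 h than on any control array. SPRY2 stood at 8.60, 8.42 and 8.79 in control cells and at 9.28, 9.04 and 9.22 with Ra. It rose by 0.58 ± 0.12 (limma adjusted p = 0.0236 with 6 arrays, 0.736 with 12). SPRY4 stood at 5.47, 5.23 and 4.87 in control cells and at 5.70, 6.14 and 6.14 with Ra, a rise of 0.80 ± 0.19 (limma adjusted p = 0.0349 with 6 arrays). It reached 5 units on 5 Ra arrays and only 2 control arrays of the study, so it passed the filter only through the Ra groups, where it was high. Its call and the size of its change depend on the filter and the background model, and without it 4 of the other 8 genes rose at 12 h. SPRED1, which brings the RAS inactivator neurofibromin to the membrane, stood at 8.57, 8.55 and 8.63 in control cells and at 8.84, 8.92 and 8.84 with Ra. Its difference of 0.29 ± 0.08 was the smallest with no overlap between the groups and did not pass (limma adjusted p = 0.0571 with 6 arrays).

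Among the output genes, PHLDA1, which encodes a small pleckstrin homology-like protein, had the largest difference at 12 h. It stood at 11.36, 11.01 and 10.99 in control cells and at 12.09, 11.97 and 11.84 with Ra, a rise of 0.85 ± 0.11 (1.80-fold; limma adjusted p = 0.00844 with 6 arrays, 0.603 with 12). ETV4 and ETV5 are ETS transcription factors of the PEA3 group. ETV4 stood at 7.08, 7.17 and 7.30 in control cells and at 7.96, 8.09 and 7.63 with Ra, a rise of 0.71 ± 0.14 (limma adjusted p = 0.0206 with 6 arrays). ETV5 stood at 9.45, 8.96 and 9.27 in control cells and at 9.79, 9.90 and 9.72 with Ra, a rise of 0.58 ± 0.13 (limma adjusted p = 0.0298 with 6 arrays). FOSL1, an AP-1 subunit that pairs with JUN proteins, stood at 8.43, 8.005 and 8.64 in control cells and at 8.85, 8.25 and 8.43 with Ra. Its groups overlapped, with a difference of 0.15 ± 0.20 (limma adjusted p = 0.662 with 6 arrays).

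With 1 array of 12 h left out of the 6, PHLDA1 kept its call in 6 of 6 fits. SPRY2, ETV4 and ETV5 kept theirs in 2 of 6 each and SPRY4 in 0 of 6. The count of 5 became 1 without Ra replicate 1, Ra replicate 2 or control replicate 2, 2 without control replicate 1, 3 without control replicate 3 and 4 without Ra replicate 3. How many of all genes those fits called is not given here, so these counts cannot be set against all genes. With the replicate block the count was 6, where 12.7% of all genes were called higher.

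**Figure D2:**
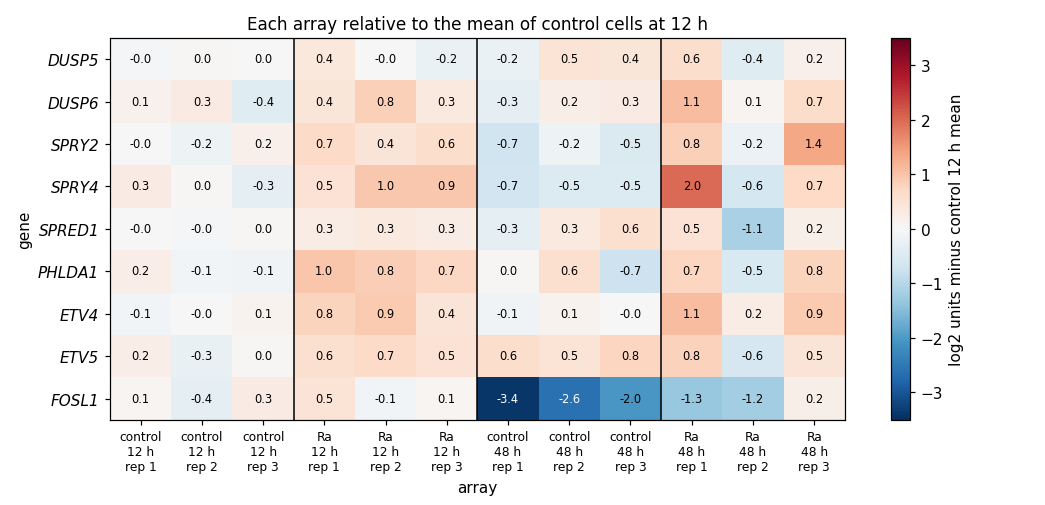
Each of the 9 tested genes (rows) on each of the 12 arrays (columns), in log2 units minus that gene's mean in control cells at 12 h, red for higher and blue for lower. The Ra arrays of 12 h run from -0.22 upwards over the 9 genes, Ra 48 h replicate 2 is below 0 for 7 of them, and FOSL1 is far below 0 in control cells at 48 h.

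The sequences just before the start sites of the genes that moved together at 12 h were read from RefSeq (GRCh38.p14), from 250 bases before to 50 after the start. The table held windows for 5 of the 10 genes. Those of SPRY2, SPRY4 and PHLDA1 are shown because all 3 rose at 12 h, and those of DUSP6 and SPRED1 because their groups did not overlap at 12 h. Capitals mark matches, on either strand, to the PEA3 motif AGGAAG, the EGR motif GCGGGGGCG and the GC box GGGCGG.
SPRY2, chr13:80341077-80341376, minus strand: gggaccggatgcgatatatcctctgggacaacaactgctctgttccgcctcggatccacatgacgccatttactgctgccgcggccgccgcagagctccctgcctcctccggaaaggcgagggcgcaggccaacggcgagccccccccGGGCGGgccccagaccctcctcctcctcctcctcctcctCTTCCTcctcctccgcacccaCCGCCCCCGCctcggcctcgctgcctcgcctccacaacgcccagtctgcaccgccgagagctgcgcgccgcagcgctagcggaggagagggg
SPRY4, chr5:142324198-142324497, minus strand: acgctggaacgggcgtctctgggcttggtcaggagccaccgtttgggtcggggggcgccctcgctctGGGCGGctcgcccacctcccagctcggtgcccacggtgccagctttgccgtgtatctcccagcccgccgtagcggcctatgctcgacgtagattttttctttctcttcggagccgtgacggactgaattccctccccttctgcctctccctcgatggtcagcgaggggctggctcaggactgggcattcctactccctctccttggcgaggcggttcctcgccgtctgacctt
PHLDA1, chr12:76031727-76032026, minus strand: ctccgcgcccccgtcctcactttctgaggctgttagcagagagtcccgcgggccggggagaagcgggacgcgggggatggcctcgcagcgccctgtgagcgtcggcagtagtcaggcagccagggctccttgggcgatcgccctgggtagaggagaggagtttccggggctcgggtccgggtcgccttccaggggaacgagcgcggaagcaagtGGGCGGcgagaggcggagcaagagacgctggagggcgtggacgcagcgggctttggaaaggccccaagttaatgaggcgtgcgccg
DUSP6, chr12:89352452-89352751, minus strand: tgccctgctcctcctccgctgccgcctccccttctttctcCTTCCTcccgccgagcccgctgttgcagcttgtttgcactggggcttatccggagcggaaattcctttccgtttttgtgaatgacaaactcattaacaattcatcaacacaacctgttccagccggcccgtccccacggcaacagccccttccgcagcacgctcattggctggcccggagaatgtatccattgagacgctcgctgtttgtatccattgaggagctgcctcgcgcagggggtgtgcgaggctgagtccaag
SPRED1, chr15:38252586-38252885, plus strand: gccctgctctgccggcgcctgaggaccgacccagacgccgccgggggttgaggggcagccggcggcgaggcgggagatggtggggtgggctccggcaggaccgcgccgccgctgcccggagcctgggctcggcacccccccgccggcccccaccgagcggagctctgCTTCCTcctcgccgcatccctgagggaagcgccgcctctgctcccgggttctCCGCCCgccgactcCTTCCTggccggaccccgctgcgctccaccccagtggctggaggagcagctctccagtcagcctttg
The SPRY2 window, the first of 3 for that gene, held an EGR match that begins 41 bases before the start and overlaps a GC box match at 42. It also held a PEA3 match at 63 and a GC box match at 102. PHLDA1 held a GC box match 36 bases before the start. SPRY4 held a GC box match at 183 and DUSP6 a PEA3 match at 210. SPRED1 held PEA3 matches at 83 and 17 and a GC box match at 31. Of the 7 windows of these genes, 5 held the GC box, 5 PEA3 and 1 the EGR motif. SPRY2 alone has 3 of these windows, so they do not count genes. By gene, 4 of the 5 held the GC box, 3 PEA3 and 1 the EGR motif. Of all 35116 windows 45.0%, 33.6% and 5.07% held them, and of the 12229 windows of tested genes 67.5%, 32.6% and 8.22%. The letters of AP-1 (TGANTCA, 7.71% of windows), CRE (TGACGTCA, 1.85%), a longer ETS motif (CCGGAAG, 10.3%, and 17.9% for tested genes), TATAAA (11.5%) and the CArG box (1.29%) were in 0 of the 7 windows of these genes.

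Control cells changed between the times in 1 of the 9 genes. FOSL1 went from 8.43, 8.005 and 8.64 at 12 h to 4.95, 5.74 and 6.34 at 48 h, with no overlap. It fell by 2.68 ± 0.42 log2 units (limma adjusted p = 0.00274 with 12 arrays; 10.1% of all genes were called lower and 9.37% higher), and this call was kept without each of the 12 arrays in turn. ETV5 had a difference of 0.62 ± 0.29 (limma adjusted p = 0.153), which passed without Ra 48 h replicate 2 (limma adjusted p = 0.00845). SPRY2 and SPRY4 stood lower at 48 h, at -0.47 ± 0.32 and -0.54 ± 0.47, and did not pass. DUSP6, PHLDA1 and ETV4 had differences of 0.06 ± 0.26, -0.04 ± 0.35 and -0.00 ± 0.23.

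At 48 h FOSL1 and SPRY2 were higher in Ra-treated cells than in control cells of the same time. These were 2 of the 9 tested genes, where 3.00% of all genes were called higher and 9.56% lower in the fit of 12 arrays. The mean was higher with Ra for 6 of the 9, with a median difference of 0.55, against 32.9% of all genes and a median of -0.20. In the fit of the 6 arrays of 48 h 0 of the 9 passed, and limma called 0.00% of all genes there. In it 3 of the 9 had an unadjusted p under 0.05, as did 1748 of all 10050 genes. For FOSL1 and ETV4 every Ra array lay above every control array, which was so for 5.37% of all genes.

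FOSL1 stood at 4.95, 5.74 and 6.34 in control cells at 48 h and at 7.05, 7.14 and 8.57 with Ra. The Ra arrays lay between the control levels of 48 h and those of 12 h, except replicate 3, which was within the range of 12 h. The rise was 1.91 ± 0.42 (3.75-fold, limma adjusted p = 0.0198 with 12 arrays, 0.193 with 6), and its SE was 0.50 in the fit of 6 arrays. The mean with Ra went from 8.51 at 12 h to 7.58 at 48 h. The call was lost without control 48 h replicate 1 (1.54, limma adjusted p = 0.0833) and without control 48 h replicate 2 (1.94, 0.0787). Control replicate 1 lay under 5 units, so the size of the difference depends on the background model.

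SPRY2 stood at 7.89, 8.41 and 8.09 in control cells at 48 h and at 9.42, 8.41 and 9.96 with Ra. Ra replicate 2 was level with the highest control array, and the other two Ra arrays were above all controls. The rise was 1.13 ± 0.32 (2.19-fold, limma adjusted p = 0.038 with 12 arrays, 0.242 with 6), and its SE was 0.41 in the fit of 6 arrays. It was called without Ra 48 h replicate 1 or 2 and lost without each other array in turn, and it was lost with the replicate block (limma adjusted p = 0.0549 with 12 arrays). With the block in the 6-array fit FOSL1 alone was called (limma adjusted p = 0.0368), where 0.368% of all genes were called higher. SPRY4 stood at 4.53, 4.72 and 4.70 in control cells and at 7.18, 4.58 and 5.88 with Ra, so that 1 Ra array was at control level and 1 far above. Its difference of 1.23 ± 0.47 did not pass (limma adjusted p = 0.0937). SPRED1 stood at 8.27, 8.93 and 9.15 in control cells and at 9.08, 7.45 and 8.79 with Ra, a difference of -0.35 ± 0.35 (limma adjusted p = 0.514).

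ETV4 stood at 7.06, 7.30 and 7.18 in control cells at 48 h and at 8.25, 7.43 and 8.10 with Ra, with no overlap. Its difference of 0.75 ± 0.23 just missed the threshold (limma adjusted p = 0.0513). ETV5, its near relative, stood at 9.85, 9.70 and 9.98 in control cells and at 10.02, 8.63 and 9.68 with Ra, a difference of -0.40 ± 0.29 (limma adjusted p = 0.352). PHLDA1 stood at 11.16, 11.68 and 10.39 in control cells and at 11.86, 10.58 and 11.91 with Ra. Its arrays overlapped widely in both directions, with a difference of 0.37 ± 0.35 (limma adjusted p = 0.476).

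The phosphatases did not pass at 48 h. DUSP6 stood at 11.60, 12.16 and 12.22 in control cells and at 13.01, 12.03 and 12.58 with Ra, a difference of 0.55 ± 0.26 (limma adjusted p = 0.163). DUSP5 stood at 10.16, 10.88 and 10.82 in control cells and at 11.004, 9.96 and 10.58 with Ra, a difference of -0.11 ± 0.26 (limma adjusted p = 0.805).

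Ra 48 h replicate 2 held the lowest Ra value of 48 h for 8 of the 9 genes, FOSL1 being the exception. The mean of the 9 genes on that array was -0.48 relative to control cells at 12 h, against 0.70 and 0.61 on the other Ra arrays of 48 h and -0.57, -0.12 and -0.19 on the control arrays. Without it, 5 of the 9 genes rose: SPRY4 by 1.88 ± 0.33 (limma adjusted p = 0.00838), SPRY2 by 1.56 ± 0.20 (0.00483), FOSL1 by 2.13 ± 0.46 (0.0154), ETV4 by 1.00 ± 0.16 (0.00616) and DUSP6 by 0.81 ± 0.25 (0.0484). In that fit of 11 arrays 11.2% of all genes were called higher. Only 2 Ra arrays of 48 h remain in it, with SDs of 0.92 for SPRY4 and 1.08 for FOSL1. Its SEs share 1 spread estimate with the tighter arrays of 12 h and do not measure the spread of those Ra arrays alone. All 3 control arrays of SPRY4 at 48 h were under 5 units, so the size of its change there depends on the background model, and apart from it 4 of the other 8 genes rose. The Ra arrays then lay above all control arrays for 6 of the 9 genes, PHLDA1 being the other, which was so for 23.2% of all genes. PHLDA1 had 0.81 ± 0.29 (limma adjusted p = 0.0697), while DUSP5, SPRED1 and ETV5 had 0.17, 0.15 and 0.01. Quantile normalization and centring of each array on its median, both over all 12 arrays, called the same 5 genes. Among all 10050 genes they called 3013 and 2863, in either direction. These scalings moved the median of all genes at 48 h from -0.20 to 0.01 and 0.05.

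**Figure D3:**
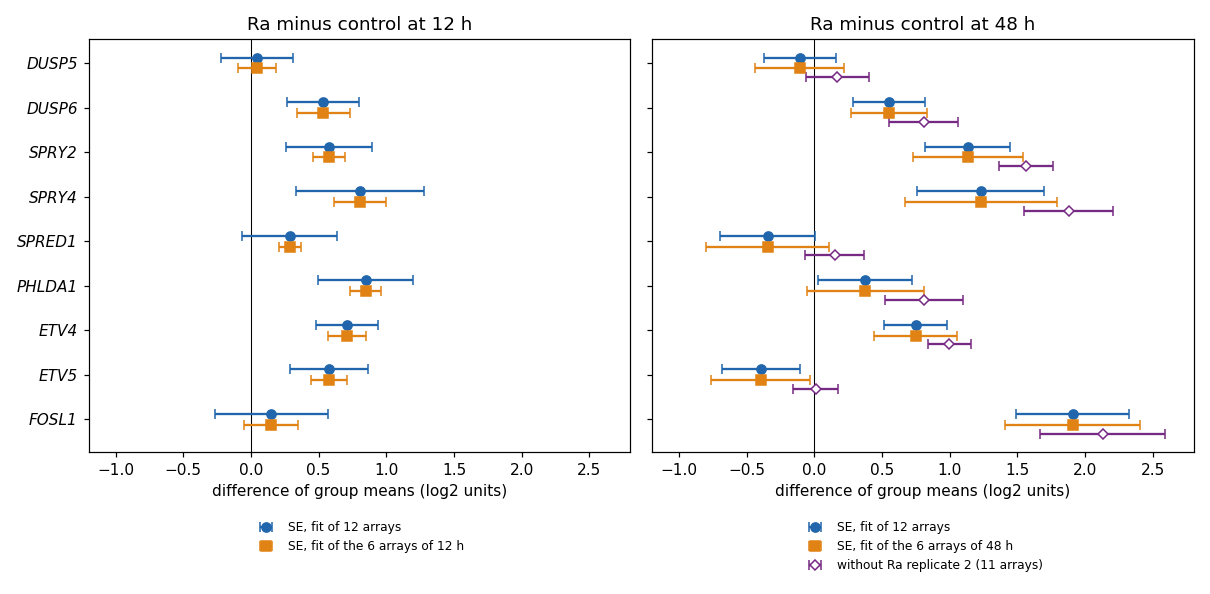
Difference of group means, Ra minus control, in log2 units for the 9 tested genes at 12 h (left) and 48 h (right), with SE bars from the fit of 12 arrays (circles), from the 6 arrays of that time (squares) and, at 48 h, without Ra replicate 2 (open diamonds). At 12 h the bars of the 6-array fit are the shorter ones, and at 48 h all 9 open diamonds lie above 0, from 0.01 for ETV5 to 2.13 for FOSL1.

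The change in the effect of Ra from 12 h to 48 h was tested directly. Of the 9 genes 0 passed limma's test, where 0.0199% of all genes were called. In it 2 of the 9 had an unadjusted p under 0.05, as did 1933 of all 10050 genes. FOSL1 differed by 1.76 ± 0.59 between the times (limma adjusted p = 0.152) and ETV5 by -0.97 ± 0.41 (0.218). FOSL1 passed after quantile normalization (2.01, limma adjusted p = 0.0473) and after centring (2.02, 0.0416), and ETV5 without Ra 48 h replicate 1 (-1.26, 0.0487). Without Ra 48 h replicate 2 limma called 0 of the 9 and 3.18% of all genes, and the adjusted p was 0.067 for SPRY2 (0.98 ± 0.27) and 0.0848 for FOSL1 (1.98 ± 0.62). For SPRY2, SPRY4 and ETV4 the differences between the times were 0.55 ± 0.45, 0.42 ± 0.66 and 0.04 ± 0.32.

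The array carries 26 probe sets for the 10 genes, of which 21 passed the filter. All 21 had a higher mean with Ra at 12 h, and 15 did at 48 h (19 without Ra 48 h replicate 2). The 6 probe sets of PHLDA1 gave 0.63 to 0.89 at 12 h and 0.30 to 1.27 at 48 h, and in 2 of them (1.15 and 1.27) every Ra array of 48 h lay above every control array. Those of DUSP6 gave 0.42 to 0.53 and 0.55 to 0.85. Both probe sets of ETV4 separated the groups at both times, with 0.71 and 0.72 at 12 h and 0.75 and 1.27 at 48 h. The 4 measured probe sets of ETV5 gave 0.29 to 0.58 at 12 h and -0.98 to -0.26 at 48 h, and in 1 of them every Ra array of 48 h lay below every control array. The second measured probe set of SPRED1 gave 0.04 at 12 h and 0.10 at 48 h. DUSP5, SPRY2, SPRY4 and FOSL1 have 1 probe set each.

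**Figure D4:**
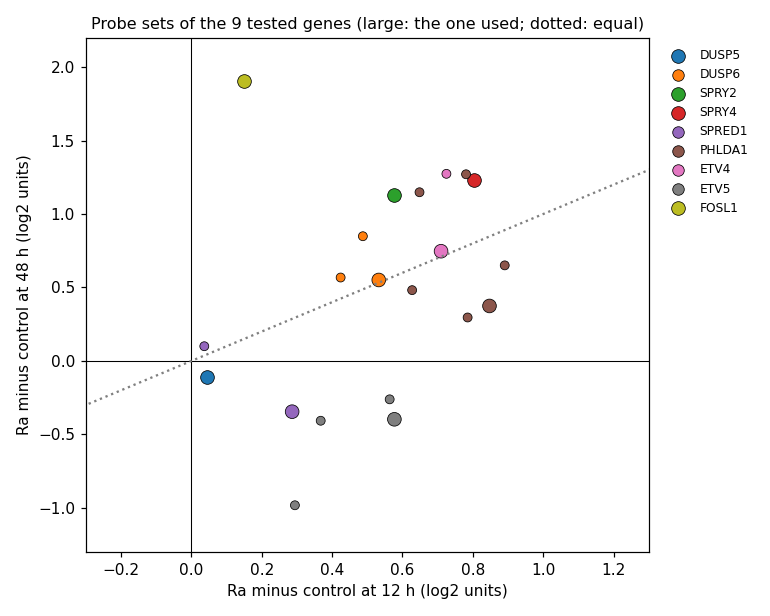
Difference of group means, Ra minus control, in log2 units at 12 h (horizontal) and 48 h (vertical) for the 21 probe sets that passed the filter, coloured by gene, with the one used drawn large. All 21 lie to the right of 0, the 4 of ETV5 lie below 0 at 48 h, and FOSL1 stands apart at 0.15 and 1.91.

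Across the 12 arrays the genes fell into loosely shared patterns, described here by Pearson's r, which the 4 group means and the depressed array both shape. ETV4 followed SPRY2 (r = 0.86), SPRY4 (0.81) and DUSP6 (0.81), and these values were 0.87, 0.84 and 0.81 without Ra 48 h replicate 2. SPRED1 followed ETV5 (0.80) and DUSP5 (0.77), which became 0.55 and 0.74 without that array. FOSL1 went with SPRY2 (0.67) and had -0.11 with DUSP5 and -0.21 with ETV5, which became -0.18 and -0.39 without that array. Among all tested genes the 2 nearest to FOSL1 were GINS2 and CSTF3 (0.98 each), those nearest to SPRY2 were BRD3 (0.95) and SLC66A2 (0.93), and those nearest to PHLDA1 were SIK2 (0.96) and PWAR6 (0.94). NID1 and YPEL1 were nearest to ETV4 (0.94 each), CUL4B and OMA1 to ETV5 (0.96 each), and LRCH1 and MZT1 to SPRY4 (0.93 each). PERP (0.93) and PTBP3 (0.92) were nearest to DUSP6, TCIM (0.90) and PDS5A (0.87) to DUSP5, and CPSF3 (0.98) and ICE1 (0.96) to SPRED1. Without Ra 48 h replicate 2 these 18 values ran from 0.84 for ICE1 to 0.99 for CSTF3. Other genes then ranked first for ETV4 (MREG, 0.97), ETV5 (CCNG1, 0.97) and FOSL1 (NDN, 0.99), the 2 nearest to DUSP5 changed places, and the second place also changed for SPRY2, SPRY4, SPRED1 and PHLDA1.

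The rest of the pathway was read from 83 listed genes, of which 61 were tested. At 12 h 11 of the 61 rose and 2 fell in the 6-array fit, where 7.34% of all genes were called higher and 6.25% lower. Their median difference was 0.06. In the fit of 12 arrays 0 of the 61 passed and 6 had an unadjusted p under 0.05, as did 751 of all 10050 genes. At 48 h 4 of the 61 rose and 4 fell in the fit of 12 arrays, with a median of -0.10, where 3.00% of all genes were called higher and 9.56% lower. Without Ra 48 h replicate 2, 13 rose and 3 fell, where 11.2% of all genes were called higher and 8.13% lower. In the 6-array fit of 48 h limma called 0 of the 61, and 14 had an unadjusted p under 0.05, as did 1748 of all 10050 genes. The 8 calls of the 12-array fit at 48 h were all lost when either replicate 1 or replicate 2 of the 48 h control arrays was left out. Over 24 alternative fits, the one reported not included, TGFA was called in 18, JUNB in 17, EGFR in 14 and MKNK2 in 13. ERRFI1 was called in 10, CCND1 and PLAUR in 9 each, and DUSP16 in 9 of 23. Of 30 alternatives to the 12-array fit at 12 h, the 6-array fit among them, ETV1 was called in 13. TGFA, JUNB and ELK3 were called there in 8 each, FGFR2 in 7 and IL17RD in 7 of 29. PLAUR and ETS2 were called in 6 each, and ERBB2, MET, SOS2 and EMP1 in 5 each.

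Upstream of ERK, 1 of 5 ligands, 2 of 7 receptors and 1 of 7 adaptors and RAS genes rose at 12 h, and 1 receptor fell. TGFA, a ligand of the EGF receptor, rose by 0.39 ± 0.07 (limma adjusted p = 0.0141 with 6 arrays) and at 48 h by 1.04 ± 0.20 (limma adjusted p = 0.0128 with 12 arrays). The other tested ligands, BTC, EREG, FGF2 and HBEGF, had lower means with Ra at 48 h (-2.44, -1.60, -1.06 and -0.73). They did not pass (limma adjusted p = 0.0546, 0.0899, 0.0623 and 0.262 with 12 arrays). Without Ra 48 h replicate 2 the differences were -1.74, -0.79, -0.65 and -0.39. At 12 h HBEGF was lower on every Ra array than on any control array (-0.67, limma adjusted p = 0.0619 with 6 arrays). The receptors ERBB2 and MET rose by 0.46 ± 0.12 and 0.25 ± 0.06 at 12 h (limma adjusted p = 0.0449 and 0.0364 with 6 arrays). SOS2, which loads RAS with GTP, rose by 0.43 ± 0.09 (limma adjusted p = 0.024 with 6 arrays). With 1 array of 12 h left out of the 6, ERBB2, MET and SOS2 kept their calls only without Ra replicate 3. FGFR2 fell by 0.80 ± 0.14 (limma adjusted p = 0.0139 with 6 arrays). EGFR itself stood at 11.63 in both groups at 12 h. At 48 h it fell by 0.61 ± 0.16 (limma adjusted p = 0.0306), with all Ra arrays (11.61 to 12.08) below all control arrays (12.18 to 12.59), and this call was lost after centring (-0.36, limma adjusted p = 0.147). Of 8 kinase genes 0 passed at 12 h. In the 6-array fit 1 of them had an unadjusted p under 0.05, as did 3092 of all 10050 genes. MKNK2, which phosphorylates a translation initiation factor, fell at 48 h by 0.97 ± 0.25 (limma adjusted p = 0.0318 with 12 arrays). Without Ra 48 h replicate 2 MKNK2 fell by 0.62 (limma adjusted p = 0.0336), and with probe sets named _s_at or _x_at left out it had -0.46 (0.274).

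Of 9 other feedback genes 1 rose at 12 h. IL17RD, an inhibitor of FGF receptor signalling, rose by 1.56 ± 0.28 (limma adjusted p = 0.0156 with 6 arrays), from 5.02 to 6.59. At 48 h it stood at 6.96 in control cells and 5.31 with Ra, a difference of -1.65 ± 0.58 that did not pass (limma adjusted p = 0.0744), and -0.87 without Ra 48 h replicate 2 (0.173). ERRFI1, which binds and blocks the EGF receptor, fell at 48 h by 0.78 ± 0.22 (limma adjusted p = 0.0419), and by 0.45 without Ra 48 h replicate 2 (0.0174). Of 3 phosphatases of the stress kinases DUSP16 fell at 48 h by 1.47 ± 0.41 (limma adjusted p = 0.0371), and it was not called without Ra 48 h replicate 2 (-1.14, limma adjusted p = 0.0752).

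Of 15 immediate early and other output genes 4 rose at 12 h and 3 at 48 h. PLAUR, the urokinase receptor, rose by 0.80 ± 0.16 at 12 h and 1.35 ± 0.40 at 48 h (limma adjusted p = 0.0206 with 6 arrays and 0.0464 with 12). The call of PLAUR at 48 h was lost without Ra 48 h replicate 3 (0.81, limma adjusted p = 0.097) and with probe sets named _s_at or _x_at left out (0.67, 0.141). The AP-1 subunit JUNB rose by 0.68 ± 0.12 and 1.05 ± 0.25 (limma adjusted p = 0.0139 with 6 arrays and 0.0244 with 12). EMP1, an epithelial membrane protein, rose by 0.62 ± 0.14 at 12 h (limma adjusted p = 0.0299 with 6 arrays). With 1 array of 12 h left out of the 6, EMP1 kept this call only without Ra replicate 1. CCND1, the D-type cyclin that starts the cell cycle, rose by 1.35 ± 0.38 at 48 h (limma adjusted p = 0.0381), a call lost without Ra 48 h replicate 2 (1.29, limma adjusted p = 0.0622). EGR1, an immediate early transcription factor, had -0.19 at 12 h and 0.19 at 48 h (0.87 ± 0.61 without Ra 48 h replicate 2) and did not pass. Of 7 ETS factors 2 rose and 1 fell at 12 h: ETV1, the remaining PEA3 factor, by 1.12 ± 0.16 (limma adjusted p = 0.0107 with 6 arrays), ELK3 by 0.62 ± 0.10 and ETS2 by -0.62 ± 0.12. At 48 h 0 of the 7 passed with 12 arrays and 2 had an unadjusted p under 0.05, as did 3352 of all 10050 genes. Without Ra 48 h replicate 2, ETV1 rose there by 1.09 (limma adjusted p = 0.0159) and ELK3 by 1.18 (0.00943).

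**Figure D5:**
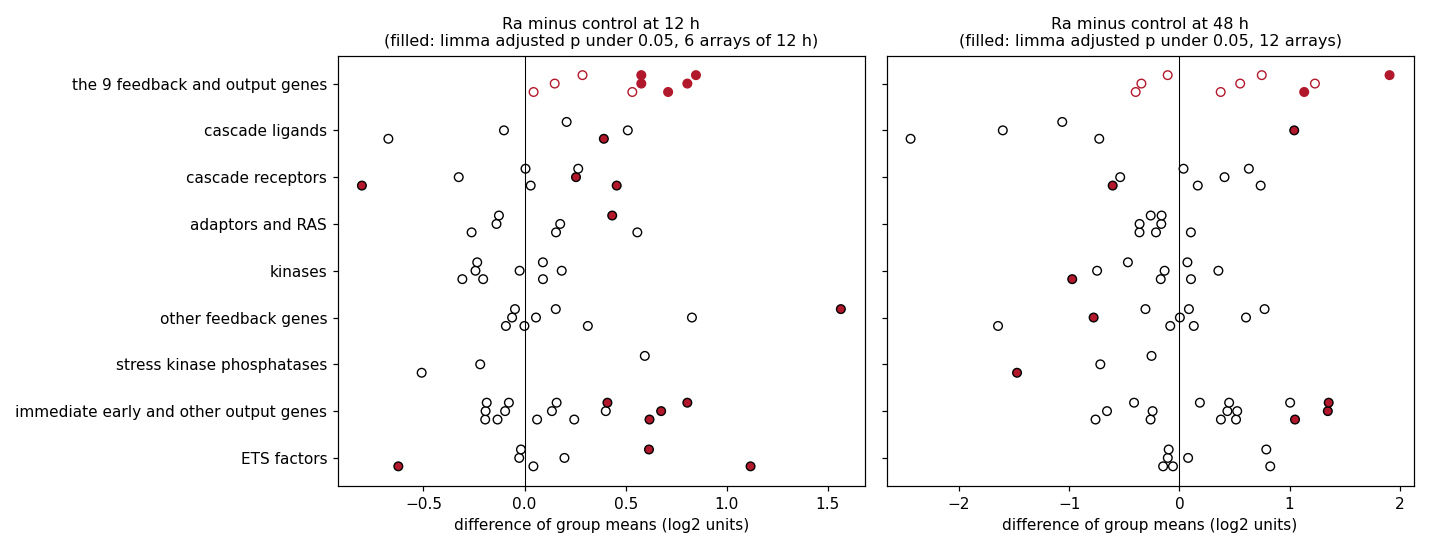
Difference of group means, Ra minus control, in log2 units at 12 h (left) and 48 h (right), 1 point per tested gene, for the 9 feedback and output genes and for 8 lists of other pathway genes; filled points passed limma's test in the fit named above each panel. At 12 h the 9 genes of the top row all lie above 0, while the 8 kinase genes lie between -0.31 and 0.18.

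Among the cell markers, EPCAM rose by 0.34 ± 0.07 and PAX8 fell by 0.46 ± 0.09 at 12 h (limma adjusted p = 0.0254 and 0.0225 with 6 arrays). At 48 h the junction gene CDH1 fell by 1.48 ± 0.43 (limma adjusted p = 0.0419 with 12 arrays, 0.233 with 6), and its groups overlapped. The other epithelial markers were not called at 48 h. KRT8 and KRT18 had higher means with Ra there (0.35 and 0.05), and KRT19 and EPCAM had lower ones (-0.31 and -0.29). Of the 3 measured fibroblast markers (COL1A1, DCN and LUM) and of the podocyte marker PODXL 0 were called at either time. The mean log2 level of the 5 epithelial markers ran from 11.16 to 11.22 over the control arrays of 12 h and from 11.28 to 11.46 over the Ra arrays, and at 48 h from 11.11 to 11.57 and from 10.68 to 11.35. That of the 3 fibroblast markers ran from 8.62 to 9.21 and from 9.20 to 9.52 at 12 h, and from 8.15 to 9.20 and from 8.13 to 9.27 at 48 h, with COL3A1 and PDGFRB below the filter. The part of these markers in the results was not tested.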

How the data were processed

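The authors used GCRMA, per the submitters' processing notes, and deposited 1 column of log2 values per array. This method models background from probe sequence, normalizes between arrays and gives 1 value per probe set. Its version and the set of arrays normalized together are not stated in the labels used here. GCRMA shrinks low signals, so changes that involve values near or under 5 log2 units depend on the background model.

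Genes were named through the platform annotation: 41097 of 54675 probe sets had 1 symbol. A probe set was kept if 3 or more arrays were at 5 log2 units or above, and the one with the highest mean stood for its gene (10050 genes). The model of group means (limma 3.58.1, R 4.3.3) had an intensity trend and ran over 12 arrays (8 residual degrees of freedom) or the 6 arrays of a time (4), with Benjamini-Hochberg adjustment over all genes at 0.05. The code was tested on simulated data. Plots were drawn with matplotlib 3.10.9, and sequences are RefSeq's.

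The genes and lists were chosen with earlier results of these data known. Other pathway genes are named where they are among the 3 largest called changes of their list at a time. EGR1 and the ligands BTC, EREG, FGF2 and HBEGF were named after their values were seen. For each tested gene the 2 genes with the highest correlation are named. Nothing says what the replicate numbers stand for. Deviations of same-numbered Ra and control arrays correlated at 0.18, 0.42 and 0.34 at 12 h, where different numbers gave -0.40 to -0.00. Deviations within a group cancel, so the values of different numbers are no separate evidence. The pairing at 12 h was inferred from these same arrays, and the replicate block rests on it. At 48 h same-numbered arrays correlated at 0.30, -0.22 and 0.10, which does not pair them. The p-values measure only the spread between these samples. Alternatives were other filters, probe set choices, scalings, array weights, the replicate block and leaving out arrays.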

Additional observations from a re-analysis of the deposited data

How the results depend on the processing

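The precision is limited by 3 arrays per group and, for SPRY4, FOSL1 and IL17RD, by signals near the background. At 12 h the count of the 9 tested genes past limma's test was 0 with 12 arrays, 5 with 6 arrays, 6 with the replicate block and 6 arrays, 0 with that block and 12 arrays, 6 with array weights per group or per array, and 1 after quantile normalization or centring. In that order these fits called 3, 1366, 2351, 0, 1793, 2366, 152 and 119 of all 10050 genes, in either direction. Leaving out 1 array gave 0 to 1 with 12 arrays and, in an alternative chosen after seeing the data, 1 to 4 with 6 arrays. With the block DUSP6 was added at 12 h, and no other call of these genes changed there. All 9 differences stayed above 0 except, without 1 array, those of DUSP5 (-0.12 to 0.18) and FOSL1 (-0.029 to 0.29, with -0.020 without Ra 12 h replicate 1 in the fit of 6 arrays).

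At 48 h the count was 2 with 12 arrays, 0 with 6 arrays, with array weights per group or with no filter, 1 with the replicate block in each fit, 4 with array weights per array, 5 after quantile normalization or centring, and 3 with probe sets averaged per gene or without the intensity trend. Of all 10050 genes, 1262 were called with 12 arrays, 5207 with array weights per array, 3013 after quantile normalization and 2863 after centring. The fit of 6 arrays and array weights per group called 0 of all genes. The replicate block called 1339 with 12 arrays and 131 with 6. With probe sets averaged per gene 1128 were called, and with no filter 327 of 19775 genes. The number for the fit without the intensity trend is not given here. Leaving out 1 array gave 0 to 5. The 5 came without Ra 48 h replicate 2, where 11.2% of all genes were called higher and 8.13% lower. For the other arrays left out the share of all genes is not given here. DUSP5 turned to 0.094 after quantile normalization and 0.14 after centring. Without 1 array DUSP5 ran from -0.35 to 0.17, SPRED1 from -0.66 to 0.15 and ETV5 from -0.69 to 0.0086.

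For the difference between the times the count was 0, or 3 with array weights per array and 1 after quantile normalization or centring, and 0 to 1 without 1 array. The fit of 12 arrays called 2 of all 10050 genes for this difference, in either direction. Array weights per array called 4464, quantile normalization 945 and centring 856. DUSP5 turned to 0.035 after quantile normalization and 0.11 after centring and DUSP6 to -0.0023 with array weights per array. Without 1 array DUSP5 ran from -0.40 to 0.12, DUSP6 from -0.22 to 0.27, ETV4 from -0.13 to 0.29 and SPRY4 from -0.22 to 1.07. In control cells between the times the count was 1, or 2 with array weights per group, after quantile normalization or after centring, 6 with array weights per array, and 1 to 2 without 1 array. There the fit of 12 arrays called 1955 of all 10050 genes and array weights per group 3691. Quantile normalization called 3712, centring 3555 and array weights per array 6127. PHLDA1 turned to 0.41 and ETV4 to 0.11 with array weights per array, and DUSP6 to -0.18 and PHLDA1 to 0.053 with probe sets averaged per gene. Without 1 array PHLDA1 ran from -0.34 to 0.30, DUSP6 from -0.15 to 0.26 and ETV4 from -0.061 to 0.058. The cause of these changes was not tested.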

Other observations

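Other genes of the pathway also changed in control cells between 12 h and 48 h; those with a call are named here, chosen after their values were seen. Of the 61 tested genes 5 fell and 3 rose in limma's fit of 12 arrays, shares below those of all genes, of which 10.1% were called lower and 9.37% higher. On the log2 scale CCND1 fell by 2.26 ± 0.38 (SE; limma adjusted p = 0.00357), from 9.83 to 7.57, and PLAUR fell by 1.83 ± 0.40 (0.0099), from 8.64 to 6.81. The ERK phosphatase gene DUSP7 fell by 1.71 ± 0.46 (limma adjusted p = 0.0218), ELK3 by 1.04 ± 0.30 (0.0311) and JUNB by 0.79 ± 0.25 (0.0441).

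EGFR rose in control cells by 0.77 ± 0.16 (limma adjusted p = 0.0073), MKNK2 by 0.81 ± 0.25 (0.0417) and IL17RD by 1.94 ± 0.58 (0.0344). With Ra at 48 h the means stood at 8.92 for CCND1, 8.16 for PLAUR, 9.85 for ELK3, 7.57 for JUNB, 11.79 for EGFR and 12.06 for MKNK2. The comparison with Ra at 48 h and the comparison of the control cells share the control arrays of 48 h, so they are not independent.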
